A study of Mus musculus with 4 samples.

Results

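The regions described here are the very wide peaks at start sites in a map of XBP1s binding to chromatin. They were chosen by width and position: each is an interval of the authors' peak list that is at least 1000 bp wide and whose centre lies at most 1000 bp from a transcription start site (TSS) by the authors' distance. Of 4890 peaks, 293 met both conditions, and they were assigned to 292 genes. The map was made by ChIP-seq, the sequencing of DNA that precipitates with an antibody, here against XBP1s. The cells were natural killer (NK) cells, innate lymphocytes of antiviral and antitumour defence, purified from the spleens of C57BL/6 mice of the genotype Il15TgXbp1f/f, as the labels write it. They name no Cre driver. The 4 libraries, 2 XBP1s immunoprecipitations and 2 inputs, all came from such cells exposed for 1 h to 50 ng/ml of IL-15, a cytokine that NK cells need to survive, so no untreated or Xbp1-deficient group was compared. The deposited values are 1 combined list with no column for any library. There is therefore no error between replicates for any width or position, and depth per library is unknown. Whether the replicates came from separate animals is not stated. NK identity could not be checked from expression, which was not measured.

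XBP1 is a transcription factor of the unfolded protein response. When unfolded proteins accumulate in the endoplasmic reticulum (ER), the sensor IRE1 cuts an intron out of Xbp1 mRNA, and the spliced message encodes the active factor XBP1s. XBP1s enters the nucleus and activates genes for protein import into the ER, folding, glycosylation, degradation and vesicle transport. It is best known from plasma cells and other secretory cells, and it binds elements built around an ACGTGG or CCACG core: the unfolded protein response element (UPRE) and, beside a box for the factor NF-Y, the ER stress response elements ERSE and ERSE-II.

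Because sequence played no part in choosing the peaks, the promoters beneath them are shown first. RefSeq promoters (build GRCm38.p6, the assembly of mm10; 250 bases before to 50 after each start) could be placed for 243 of the 293 peaks, those whose start in the table matched the authors' TSS within 1 bp. The full ERSE (CCAAT, 9 bases of any kind, then CCACG, searched on both strands) occurred in 8 of these promoters. All 8 sites are given because they show which of these promoters hold the exact letters of the classical ER stress element. Inexact matches were not counted, and promoters that could not be placed were not searched. The sites are written 5′ to 3′ in the ERSE orientation, with the fixed letters in capitals.
Canx: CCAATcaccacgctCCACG
Hspa5: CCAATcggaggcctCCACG
Pan2: CCAATcagcgggggCCACG
Pdia6: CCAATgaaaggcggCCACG
Calr: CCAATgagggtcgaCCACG
Alg12: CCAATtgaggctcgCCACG
Syvn1: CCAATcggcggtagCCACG
Dnajc3: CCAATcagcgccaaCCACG
They lie for Canx at chr11:50325800-50325818 (minus strand), for Hspa5 at chr2:34772025-34772043 (plus strand), for Pan2 at chr10:128303287-128303305 (minus strand), for Pdia6 at chr12:17266491-17266509 (plus strand). The others lie for Calr at chr8:84847075-84847093 (plus strand), for Alg12 at chr15:88819520-88819538 (minus strand), for Syvn1 at chr19:6046532-6046550 (plus strand) and for Dnajc3 at chr14:118937827-118937845 (plus strand). Of the 8 genes, 5 make proteins that fold others in the ER: Canx and Calr encode the lectin chaperones calnexin and calreticulin, Hspa5 the chaperone BiP, Pdia6 a disulfide isomerase and Dnajc3 a co-chaperone of BiP. Syvn1 encodes HRD1, the ubiquitin ligase of ER-associated degradation, and Alg12 a mannosyltransferase that builds the N-glycan precursor. Pan2, a subunit of an mRNA deadenylase, is the only one of the 8 outside the ER and secretory lists used below.

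The shorter ERSE-II (ATTGG, 1 base, CCACG) occurred in 4 promoters, of which 3 had it before the start. Those sites are shown with the fixed letters in capitals.
Herpud1: ATTGGgCCACG
Rbm39: ATTGGgCCACG
Lrif1: ATTGGaCCACG
Herpud1 encodes an ER membrane protein of the HRD1 degradation complex, and Rbm39 a splicing factor. These sites are Herpud1 at chr8:94386377-94386387 (plus strand), Rbm39 at chr2:156180311-156180321 (minus strand) and Lrif1 at chr3:106721614-106721624 (plus strand). The fourth site is in Dnajb11, a BiP co-chaperone, from base 8 to base 18 after the start.

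Whole promoters of 6 genes show how the elements sit before the start. Each run is the 250 bases before the RefSeq start in the direction of transcription, with any ERSE or UPRE core (TGACGTGG, or CCACGTCA on the other strand) in capitals. Hspa5, Canx and Syvn1 were chosen for the ERSE, Sec24d for the UPRE core, Xbp1 as the gene of the precipitated factor, and Creb3l2 as a very wide peak whose promoter lacks ACGTGG, the letters CCACG and the E-box CACGTG.
Hspa5: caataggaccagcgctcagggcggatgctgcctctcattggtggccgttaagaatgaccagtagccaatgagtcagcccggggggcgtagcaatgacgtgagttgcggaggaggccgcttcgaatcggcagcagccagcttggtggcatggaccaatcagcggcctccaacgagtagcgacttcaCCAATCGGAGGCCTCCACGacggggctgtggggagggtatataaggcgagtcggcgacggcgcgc
Canx: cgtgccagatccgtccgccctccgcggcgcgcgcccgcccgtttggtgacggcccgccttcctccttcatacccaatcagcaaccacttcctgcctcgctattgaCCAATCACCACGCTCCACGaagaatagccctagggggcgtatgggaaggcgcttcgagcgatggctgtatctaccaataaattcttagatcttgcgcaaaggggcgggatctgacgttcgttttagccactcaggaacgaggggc
Syvn1: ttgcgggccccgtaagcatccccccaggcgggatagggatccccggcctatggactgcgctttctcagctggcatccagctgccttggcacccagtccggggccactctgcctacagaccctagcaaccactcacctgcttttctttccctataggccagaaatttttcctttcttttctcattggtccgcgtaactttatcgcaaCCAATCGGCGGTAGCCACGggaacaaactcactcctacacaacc
Sec24d: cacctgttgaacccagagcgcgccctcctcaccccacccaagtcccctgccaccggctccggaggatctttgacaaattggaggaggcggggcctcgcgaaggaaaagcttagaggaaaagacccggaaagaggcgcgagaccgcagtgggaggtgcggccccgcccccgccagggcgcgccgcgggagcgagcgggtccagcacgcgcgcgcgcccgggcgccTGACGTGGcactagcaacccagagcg
Xbp1: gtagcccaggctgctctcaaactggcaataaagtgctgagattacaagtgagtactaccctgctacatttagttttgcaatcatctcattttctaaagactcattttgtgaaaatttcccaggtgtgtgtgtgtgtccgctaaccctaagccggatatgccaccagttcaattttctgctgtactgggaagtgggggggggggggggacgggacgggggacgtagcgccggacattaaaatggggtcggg
Creb3l2: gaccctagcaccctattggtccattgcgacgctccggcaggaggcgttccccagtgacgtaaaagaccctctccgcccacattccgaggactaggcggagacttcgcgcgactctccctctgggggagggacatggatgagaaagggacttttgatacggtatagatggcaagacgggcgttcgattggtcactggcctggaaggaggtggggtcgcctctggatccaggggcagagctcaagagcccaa
Their positions are chr2:34771840-34772089, plus strand (Hspa5), chr11:50325674-50325923, minus strand (Canx), chr19:6046326-6046575, plus strand (Syvn1), chr3:123267246-123267495, plus strand (Sec24d), chr11:5520391-5520640, plus strand (Xbp1), chr6:37442149-37442398, minus strand (Creb3l2). The Hspa5 ERSE begins 65 bases before the start and the Canx ERSE 145 bases before it. In Syvn1 the distance is 44 bases, and in Sec24d, a cargo-binding subunit of the COPII coat, the UPRE core begins 26 bases before the start. The Xbp1 promoter window, with a GC content of 51%, held no match to any of the 15 motifs searched, although the peak over it reached 734 bp upstream and 1561 bp downstream of the start. This says only that these letters are not in these 300 bases.

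The UPRE core occurred in 15 promoters under very wide peaks. Among their genes were Txndc11 and Txndc5, of the disulfide isomerase family, the transport genes Scfd1, Sec24d and Arf1, Nfe2l1, a stress factor anchored in the ER membrane, the ER membrane gene Lrrc59, Tm9sf3, and Ncstn, a subunit of gamma-secretase. Others were outside secretion, such as the translation initiation gene Eif3a, the kinase gene Cdk7 and Ascc3. The first bases of the 8 ERSE sites lay between 220 and 44 bases before the start (median -101.5), and those of the UPRE core between -223 and 33 (median -42). All 27 sites of the 3 elements, in 26 genes, lay inside the peak interval itself. This follows in large part from the selection, since short promoters were searched under peaks chosen to be wide and near the start. The same count was not made for narrower peaks, and whether the sites themselves are bound was not tested. Lrif1 had both an ERSE-II and a UPRE core, which overlap.

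**Figure D1:**
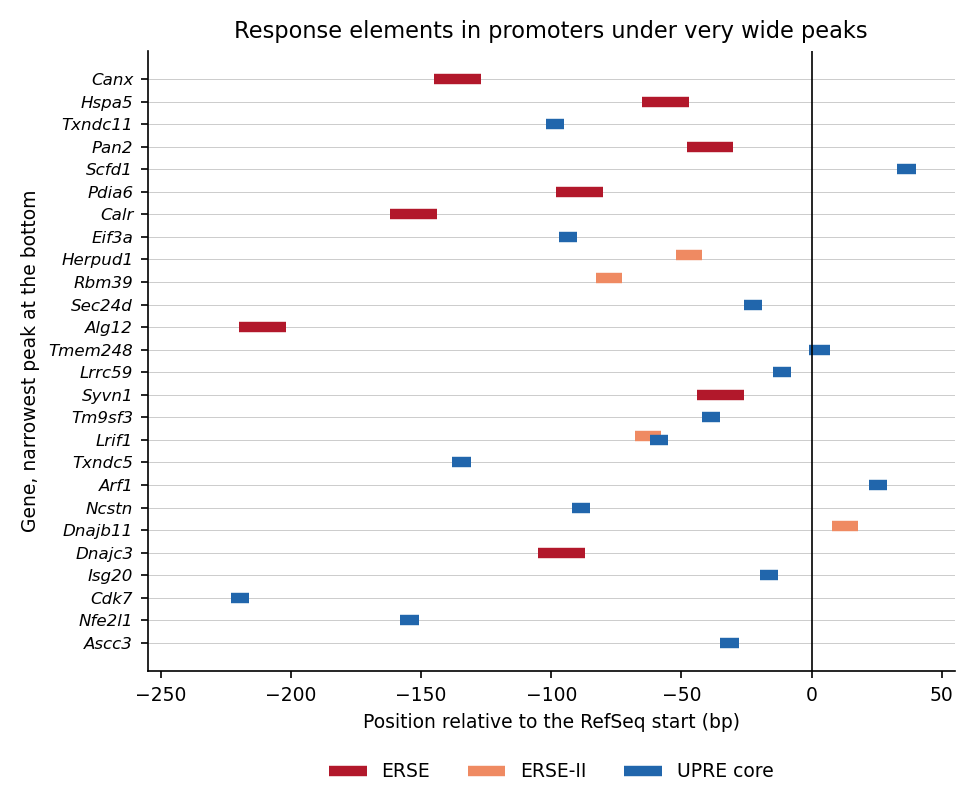
Position of every UPRE core, ERSE and ERSE-II match (bars) in the promoters under very wide peaks, with the position relative to the RefSeq start in bp on the x axis and 1 gene per line, ordered by peak width. All 8 ERSE matches lie before the start, and 12 of the 15 UPRE core matches end before it.

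Promoters under very wide peaks held these elements more often than promoters under the 2634 narrower peaks within 1000 bp of a TSS that could be placed. A promoter is called under a peak when the peak was matched to its start, whether or not the interval covers it. The interval covered the TSS for 96.6% of very wide peaks but 66.1% of all 3346 narrower ones. Promoters of narrower peaks thus lay outside the interval more often, and the part of this in the contrasts was not tested. Each share is followed by its exact 95% binomial (Clopper-Pearson) interval, which takes in only the error of counting. No test was made, since peaks of 1 list are not replicates. Promoters are counted once for each peak. The UPRE core was in 15 of 243 promoters (6.17%, 3.50 to 9.98), against 1.71% (1.25 to 2.28) under narrower peaks and 0.676% of all 32851 promoters in the table. The ERSE was in 8 (3.29%, 1.43 to 6.38), against 2 of 2634 (0.0759%, 0.00920 to 0.274) and 0.119% of all promoters. For ERSE-II the counts were 4 (1.65%, 0.450 to 4.16) and 3 of 2634 (0.114%, 0.0235 to 0.332), with 0.0365% of all promoters. Any of the 3 was present in 26 promoters (10.7%, 7.11 to 15.3), against 1.90% (1.41 to 2.50) under narrower peaks. The intervals of the 2 groups of peaks do not overlap for any of these 4 shares. The 2 narrower peaks with an ERSE were at ER genes as well, Derl3 (484 bp), a derlin of the degradation channel, and Ero1lb (388 bp), an oxidase that recharges disulfide isomerases.

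Shorter letters contained in these elements followed at lower contrast. ACGTGG, which the UPRE core contains, was in 28.0% of promoters under very wide peaks (22.4 to 34.1), against 16.9% (15.5 to 18.4) under narrower ones and 8.31% of all. CCACG, which the ERSE, the ERSE-II and the UPRE core (on its other strand) contain, was in 68.7% (62.5 to 74.5) against 56.5% (54.6 to 58.4), and in 32.8% of all. The NF-Y box CCAAT, also part of the ERSE and read on the other strand in the ERSE-II, was in 51.9% (45.4 to 58.3) against 40.5% (38.6 to 42.4), and in 37.4% of all. By position, CCAAT was densest between 100 and 51 bases before the start in both groups, with 27.6 matches per 100 promoters under very wide peaks and 20.3 under narrower ones.

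The other motifs searched gave no higher share with separate intervals. The cyclic AMP response element (CRE, TGACGTCA), which differs from the UPRE core in its last letters, was in 5 promoters under very wide peaks (2.06%, 0.671 to 4.74), against 5.54% (4.70 to 6.49) under narrower ones and 1.79% of all. RUNX letters (TGTGGTT) were in 2 (0.823%, 0.0998 to 2.94), against 3.53% (2.86 to 4.31), with 5.27% of all. For both motifs the 2 intervals overlap at their ends. The E-box CACGTG (14.0% against 14.3%, 7.15% of all), the GC box GGGCGG (70.0% against 70.3%, 35.7% of all) and the ETS motif CCGGAAG (24.3%, 19.0 to 30.2, against 27.1%, and 8.86% of all) had overlapping intervals. So did the TATA box TATAAA (6.17% against 5.54%, 13.6% of all), the AP-1 motif TGANTCA (4.94% against 4.18%, 7.81% of all) and the STAT motif TTCCNGGAA (1.23% against 1.48%, 1.15% of all). The T-box motif AGGTGTGA was in 1 promoter (0.412% against 0.721%, 1.28% of all). All were searched on both strands. Base composition was similar: the median GC content was 63.3% under very wide peaks (interval of the median 62 to 64.3) and 62% under narrower ones (61.7 to 62.3), against 52.7% over all promoters. The observed-to-expected CpG ratio had medians of 0.876 (0.835 to 0.904), 0.845 (0.837 to 0.854) and 0.384.

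Across width bins, the share with any of the 3 elements was 1.06% (6 of 566) for peaks under 250 bp, 1.92% from 250 to 499 bp, 2.57% from 500 to 749 bp and 2.12% (5 of 236) from 750 to 999 bp. Among very wide peaks it was 8.33% (10 of 120) from 1000 to 1249 bp and 8.47% (5 of 59) from 1250 to 1499 bp. From 1500 to 1999 bp it was 12.8% (5 of 39), and at 2000 bp or more it was 24% (6 of 25, 9.36 to 45.1). The interval of the 1000 to 1249 bp bin (4.07 to 14.8) lies above that of the 250 to 499 bp bin (1.24 to 2.85) but overlaps those of the 500 to 749 bp bin (1.44 to 4.20) and the 750 to 999 bp bin (0.691 to 4.87). Neighbouring bins above 1000 bp all overlap, so the order among them is not resolved. Of the 8 ERSE promoters, 4 lay under the 25 widest of these peaks (Canx, Hspa5, Pan2 and Pdia6; 16%, 4.54 to 36.1).

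**Figure D2:**
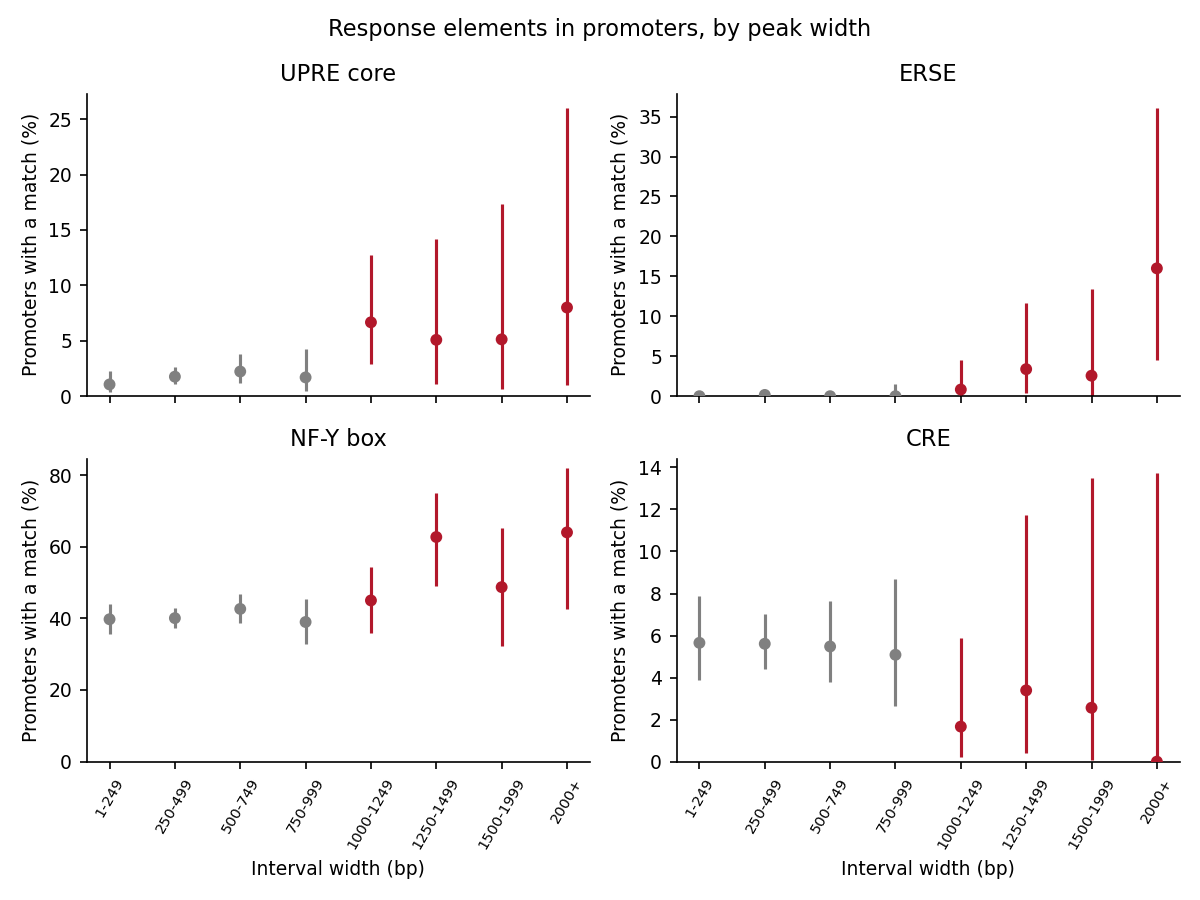
Share of promoters (%) with the UPRE core, the ERSE, the NF-Y box or the CRE against interval width in bp, grey for narrower and red for very wide peaks; points are shares and bars exact 95% intervals, and the y axes differ. The ERSE share is at most 0.160% in every bin below 1000 bp and 16% in the widest bin, which holds 25 promoters.

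Among 67 very wide peaks at genes of the ER, secretory and unfolded protein response lists, 15 promoters held any of the 3 elements (22.4%, 13.1 to 34.2), against 11 of the 176 other very wide peaks (6.25%, 3.16 to 10.9). Of the 3 elements, the ERSE alone had separate intervals, with 7 (10.4%, 4.30 to 20.3) and 1 (0.568%, 0.0144 to 3.12). The UPRE core was in 6 (8.96%, 3.36 to 18.5) and 9 (5.11%, 2.36 to 9.49), and the ERSE-II in 2 (2.99%, 0.364 to 10.4) and 2 (1.14%, 0.138 to 4.04). ACGTGG was in 40.3% (28.5 to 53.0) and 23.3% (17.3 to 30.2), and the NF-Y box in 65.7% (53.1 to 76.8) and 46.6% (39.1 to 54.2), both with overlapping intervals. These lists were chosen with earlier results of the same data known. By function, 8 of the 16 placed promoters of folding genes held an element and 14 of 16 an NF-Y box. Of the 10 placed promoters of ER import genes, none held an element, 4 held ACGTGG and 5 an NF-Y box. The import peaks were also centred differently: 13 of 15 were centred downstream of the TSS, with a median distance of 462 bp, and 11 were annotated to an intron. Folding peaks had a median distance of 39 bp, and 14 of 19 were annotated to the promoter. The searched window ends 50 bases after the start, so sequence under the downstream part of a peak was not searched.

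In shape, the very wide peaks were chosen to be at least 1000 bp, and their widths ran to 3413 bp with quartiles of 1111, 1264 and 1525 bp. They made up 5.99% of peaks and 17.9% of the bases in peaks. Within 1000 bp of a TSS, 8.05% of peaks were this wide; the other 3346 had a median width of 379.5 bp. Just inside the width threshold were Ascc3 (1000 bp), Pprc1 (1001 bp) and Nt5dc3 (1003 bp), and just outside it Ddx21 and Hspa8 (998 bp each) and Nabp1 (996 bp). At the distance threshold, Vps37c (distance 949 bp, positive downstream), Ddx6 (-947 bp) and Mir22hg (-917 bp) were just inside. Trabd (3097 bp wide, at 1188 bp), AI662270 (at 1283 bp) and Cd244a (at 1373 bp) were the nearest wide peaks outside. In all, 138 of the very wide peaks (47.1%) were narrower than 1250 bp, and 30 (10.2%) reached 2000 bp.

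**Figure D3:**
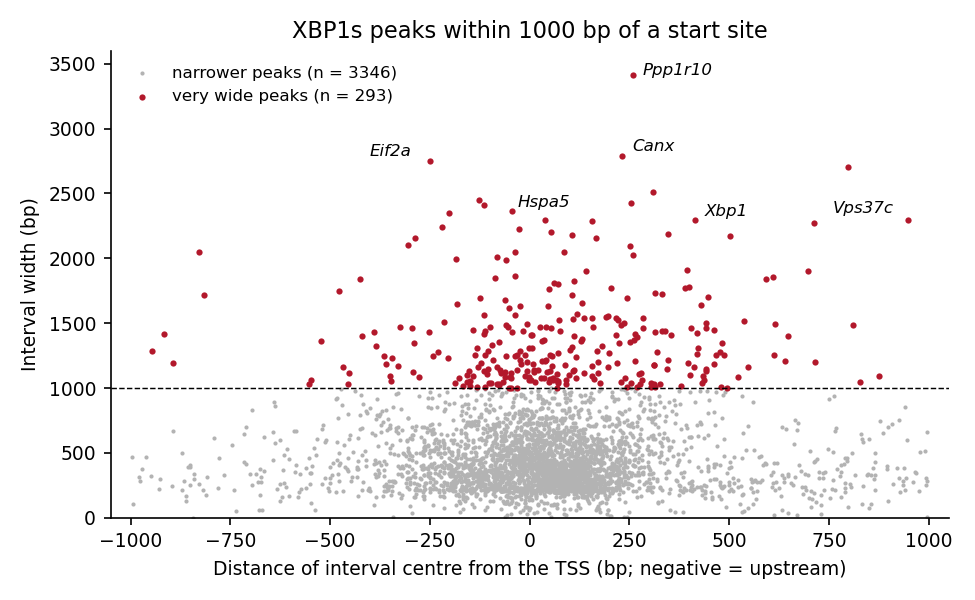
Width in bp (y axis) against the distance of the interval's centre from the TSS in bp (x axis) for all peaks within 1000 bp of a TSS; red points are the 293 very wide peaks, grey points the 3346 narrower ones, and the dashed line the width threshold of 1000 bp. The widest interval, at Ppp1r10, stands at 3413 bp, and the wide peaks cluster around the start with a median centre of 55 bp.

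The peaks lay over the start on both sides. The median centre lay 55 bp past the TSS (quartiles -83 and 265), and 176 of 293 (60.1%, 54.2 to 65.7) were centred downstream, the same as for narrower peaks (59.6%). The interval covered the TSS in 283 cases (96.6%), which follows in part from the width. For the 267 peaks centred at most 500 bp from the TSS, the minimum width of 1000 bp fixes it. The 10 that did not cover it were at Mir22hg, Ddx6, Fosl2, Mnt, Lnpep, Qrich1, Tnpo2, Sft2d3, Psmb10 and 5031425E22Rik. Among the 243 placed peaks, the interval reached a median of 602 bp upstream of the start (interquartile range 430 to 819) and 711 bp downstream (530 to 972.5). Those of 2000 bp or more reached 1088 bp and 1154 bp. Hspa5 (chromosome 2, 34770863 to 34773227, mm10) was nearly symmetric, with 1227 bp upstream and 1137 bp downstream. By contrast, Sec61g, a subunit of the translocation channel, reached 423 bp upstream and 1849 bp downstream, and Vps37c, of the ESCRT-I sorting complex, 197 and 2095 bp.

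**Figure D4:**
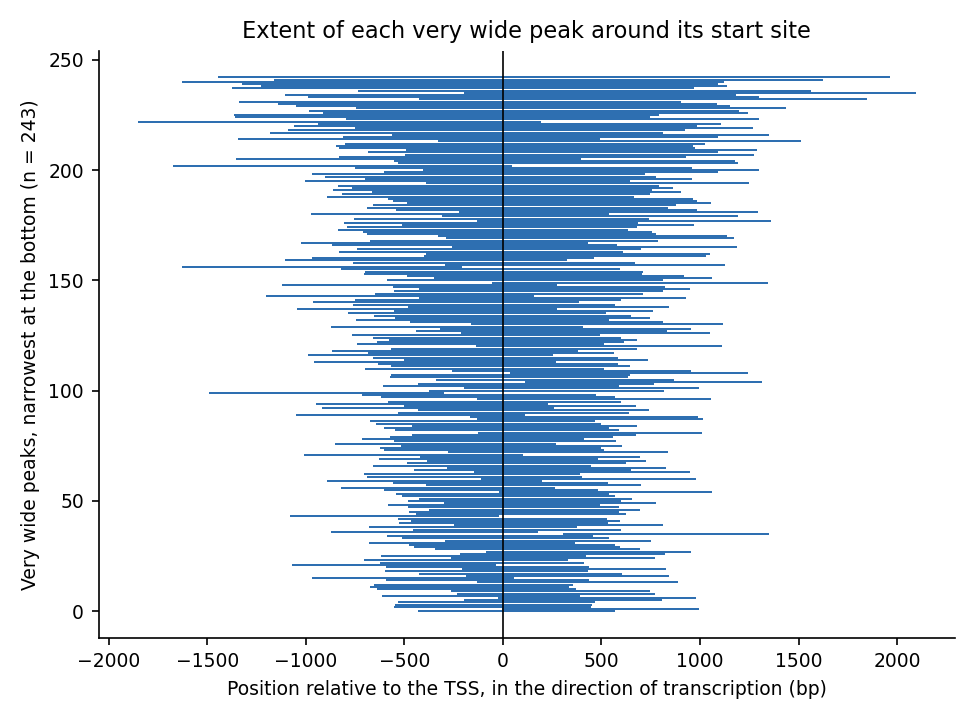
Extent of the 243 very wide peaks with a placed start, each drawn as 1 horizontal line from its upstream to its downstream end (x axis, bp from the TSS in the direction of transcription), ordered by width with the narrowest at the bottom. Most lines cross the start at 0, and the median line reaches 602 bp upstream and 711 bp downstream.

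By the authors' annotation, 196 very wide peaks (66.9%, 61.2 to 72.3) lay in promoters, against 71.0% of narrower peaks. Introns held 60 (20.5%, 16.0 to 25.6) against 12.7% (11.6 to 13.8), and 5′ untranslated regions 12 (4.10%, 2.13 to 7.04) against 7.50% (6.63 to 8.45). Exons held 18 (6.14%) against 6.04%. A label of CpG in the detailed annotation was given to 39 (13.3%, 9.64 to 17.7), against 8.79% (7.85 to 9.80). Among very wide peaks of 1250 bp or more, this label went only to peaks annotated to an intron and to none annotated to a promoter. It therefore restates part of the intron share and does not count the peaks at CpG islands. Very wide peaks had fewer close neighbours: another peak lay within 1000 bp of an edge for 15 (5.12%, 2.89 to 8.30), against 12.2% (11.1 to 13.4), and within 5000 bp for 27 (9.22%, 6.16 to 13.1), against 17.1% (15.8 to 18.4). A further peak anywhere was assigned to the same gene for 39 (13.3%, 9.64 to 17.7), against 16.2% (14.97 to 17.5). Hdlbp, which encodes the RNA-binding protein vigilin, was the only gene with 2 very wide peaks (1714 and 1657 bp). The sources used here do not give how nearby intervals were joined, and the part of joining in these counts was not tested.

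A very wide peak can cover the starts of neighbouring genes, and the gene it is assigned to is then not the only candidate. The starts of 2 or more genes lay inside 72 (24.6%, 19.8 to 29.9), against 8.37% of narrower peaks, a difference that follows in part from width. Measured without the interval's width, a start on the opposite strand within 1000 bp upstream was present for 55 of 243 (22.6%, 17.5 to 28.4), against 18.8% (17.3 to 20.3), and these intervals overlap. ER genes were among the covered neighbours. Hsp90b1, which encodes the ER chaperone GRP94, starts inside the 2446 bp peak assigned to Ttc41, and its promoter held 2 ERSE matches, at -212 to -194 and -107 to -89. Serp1, a partner of the translocon, starts inside the 2751 bp peak of Eif2a, and Sec61b, a subunit of the translocation channel, inside the 1988 bp peak of Alg2. Creld2, an ER stress gene, starts inside the 1441 bp peak of Alg12 and shares its ERSE, which lies at -126 to -108 from the Creld2 start. Sec16a, which organises ER exit sites, starts inside the 2156 bp peak of 0610009E02Rik, Ufd1l, of the extraction machinery of degradation, inside that of Cdc45 (1127 bp), Copa, of the COPI coat, inside that of Ncstn (1125 bp), and the SNARE gene Gosr2 inside that of C130046K22Rik (1054 bp). ERSE matches at covered starts were not confined to ER genes. Inside the 2508 bp peak assigned to Gm6793, an ERSE lies at -242 to -224 from the start of the splicing gene Hnrnpa3. The same site lies at -98 to -80 from the start of Gm39859. The ERSE of Calr lies at -72 to -54 from the covered start of 1700122E12Rik. With any RefSeq start inside the interval counted, a choice made after the data were seen, 30 of 249 very wide peaks (12.05%, 8.28 to 16.8) had an element, against 43 of 1865 narrower ones (2.31%, 1.67 to 3.09). Very wide intervals more often hold the starts of 2 or more genes, so more sequence was searched per peak. This difference therefore follows in part from width.

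Over all protein-coding genes, 1.26% (275 of 21900) were assigned a very wide peak. In 7 ER and secretory lists holding 283 genes the count was 78 (27.6%, 22.4 to 33.2). A further 118 had a narrower peak within 1000 bp, and 87 had none. Of the list genes without a very wide peak of their own, 8 start inside a very wide peak of another gene. Among genes with any peak within 1000 bp, 39.8% of the list genes and 8.30% of protein-coding genes had a very wide one. Seen from the peaks, 78 of 293 (26.6%, 21.6 to 32.1) were assigned to these lists, against 127 of 3346 narrower ones (3.80%, 3.17 to 4.50). The share was 18.8% (12.7 to 26.4) from 1000 to 1249 bp and 40% (22.7 to 59.4) at 2000 bp or more.

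**Figure D5:**
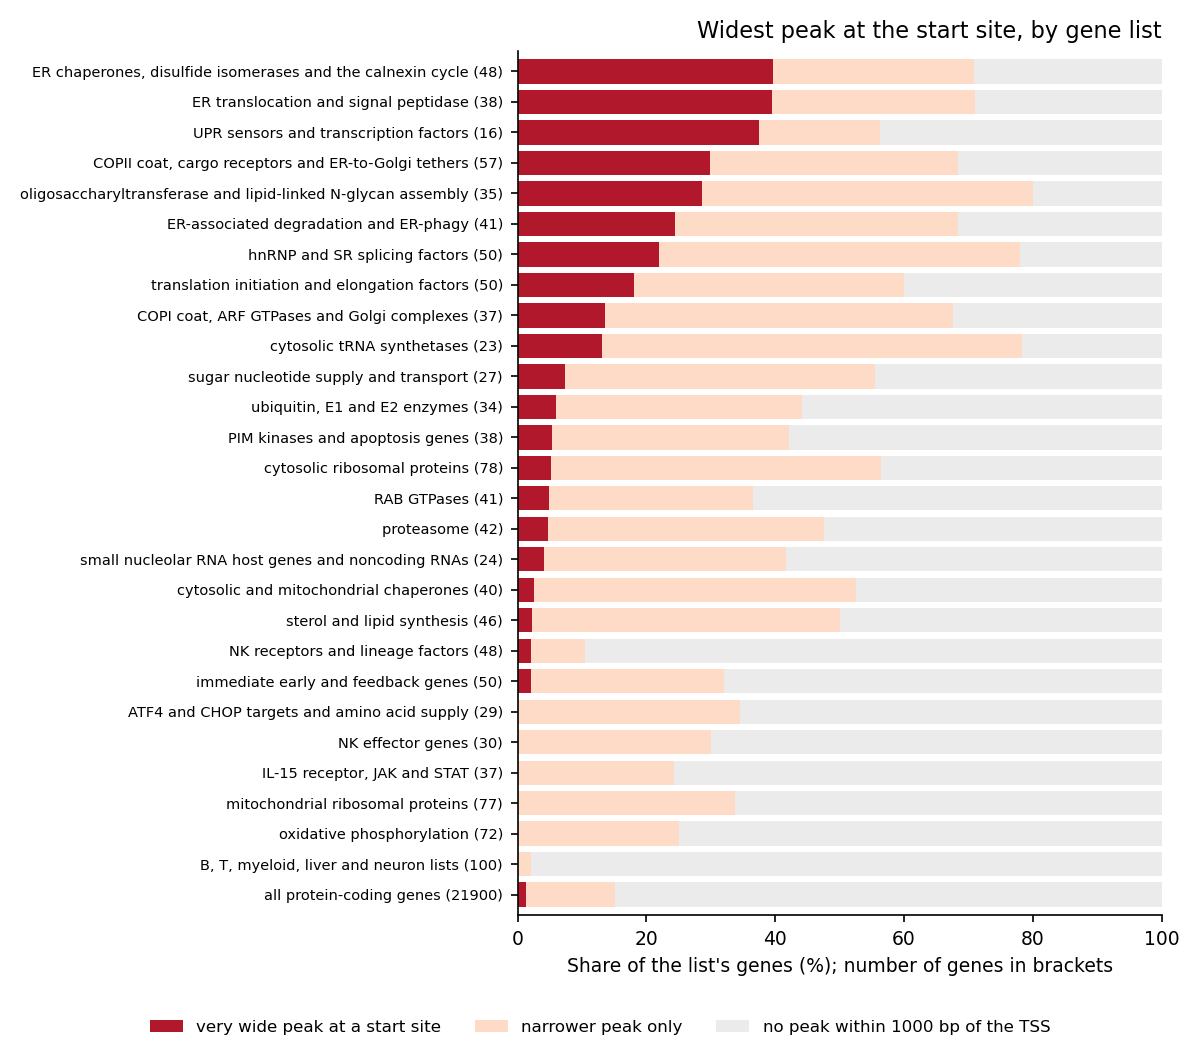
Share of each list's genes (x axis, %; number of genes in brackets) whose start had a very wide peak (red), only a narrower peak (pale) or no peak within 1000 bp (grey). The folding, import and unfolded protein response lists reach 37.5% to 39.6% in red, against 1.26% of all protein-coding genes.

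Among genes for protein import into the ER, 15 of 38 had a very wide peak (39.5%, 24.04 to 56.6). Signal peptidase, which removes signal peptides, had one at 4 of its 5 genes: Sec11c (2705 bp), Spcs3 (1899 bp), Spcs2 (1440 bp) and Sec11a (1141 bp). The fifth, Spcs1, had a peak of 978 bp, just under the threshold. The channel and its partners had one at 3 of 6 genes, Sec61g (2273 bp), Sec63 (1421 bp) and Sec61a1 (1395 bp), while Sec62 had 456 bp and Sec61a2 and Sec61b had no assigned peak within 1000 bp. The translocon-associated TRAP complex had Ssr1 (1838 bp), Ssr3 (1705 bp) and Ssr4 (1062 bp), with Ssr2 at 714 bp. For the signal recognition particle and its receptor, 3 of 8 genes had one: the receptor subunit Srpr (1468 bp), Srp72 (1186 bp) and Srp68 (1163 bp). These complexes, and those named below, were put together after the genes' names had been seen.

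N-glycosylation genes had very wide peaks in 10 of 35 cases (28.6%, 14.6 to 46.3). Oligosaccharyltransferase, which moves the glycan onto the new protein, held 7 of them: the catalytic subunit Stt3a (2227 bp), Rpn1 (1777 bp), Ostc (1543 bp), Ddost (1471 bp), Rpn2 (1448 bp), Tmem258 (1244 bp) and Magt1 (1135 bp). A further 4 of its 12 genes came close, with Stt3b, the second catalytic subunit, at 980 bp, Dad1 at 943 bp, Ost4 at 895 bp and Krtcap2 at 842 bp. The other 3 were the glycan assembly genes Alg2 (1988 bp), Alg12 (1441 bp) and Alg8 (1078 bp). In sugar nucleotide supply, 2 of 27 genes had one (7.41%, 0.910 to 24.3), Slc35b1 (1172 bp) and Gmppa (1009 bp). That interval takes in the 1.26% of all protein-coding genes.

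Folding genes had very wide peaks in 19 of 48 cases (39.6%, 25.8 to 54.7), with a median width of 1849 bp. The groups that follow are not confined to this list: they also count Ficd, Erp29, Erp44 and Mlec, which are not on it. BiP and its partners had them at 9 of 11 genes, from Hspa5 itself (2365 bp) and its nucleotide exchange factors Sil1 (1864 bp) and Hyou1 (1371 bp) to the co-chaperones Dnajb9 (1359 bp), Dnajb11 (1124 bp) and Dnajc3 (1103 bp), and Ficd, which AMPylates BiP (1060 bp). Disulfide isomerase genes had them at 8 of 14, led by Pdia4 (2348 bp), Txndc11 (2292 bp), Pdia3 (2097 bp), P4hb (2049 bp) and Pdia6 (2024 bp). The calnexin cycle, which retains unfolded glycoproteins, had Canx (2785 bp; chromosome 11, 50324050 to 50326834, intron 1 of 14), Calr (1902 bp), Mlec (1324 bp) and Ganab (1145 bp), while the folding sensor Uggt1 had a peak of 493 bp.

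In ER-associated degradation, 10 of 41 genes had a very wide peak (24.4%, 12.4 to 40.3). They included Herpud1 (1773 bp), Ube2g2, a ubiquitin-conjugating enzyme (1559 bp), the mannosidase-like gene Edem1 (1470 bp), Syvn1 (1378 bp) and Selenos (1317 bp). Within the HRD1 complex the widths were uneven, with Sel1l, the adaptor of the ligase, at 285 bp and the lectin Os9 at 427 bp. Conjugation of the ubiquitin-like protein UFM1, which acts on ribosomes at the ER, had very wide peaks at the modifier Ufm1 (1113 bp), its conjugating enzyme Ufc1 (1008 bp) and its ligase Ufl1 (1059 bp). Of these, Ufc1 is not on the degradation list. Narrower peaks were at Ufsp2 (825 bp), Cdk5rap3 (637 bp) and Ddrgk1 (337 bp).

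Transport from the ER to the Golgi had very wide peaks at 17 of 57 genes (29.8%, 18.4 to 43.4). Scfd1, a regulator of SNARE fusion, had the widest (2178 bp). The COPII coat had Sec24c (2011 bp), Sec24d (1540 bp), Sec31a (1208 bp) and Sec23b (1015 bp), and of their paralogs Sec24a had 738 bp, Sec23a 371 bp and Sec24b no peak within 1000 bp. Both genes of the TANGO1 family, which loads large cargo, were included, Mia3 (1496 bp) and Mia2 (1460 bp), as were the cargo receptors Surf4 (1503 bp), Lman2 (1432 bp) and Lman1 (1351 bp). The p24 receptors had one at 4 of 8 genes, Tmed10 (1442 bp), Tmed2 (1420 bp), Tmed5 (1264 bp) and Tmed3 (1037 bp), with Tmed9 at 996 bp and no peak within 1000 bp for Tmed1, Tmed4 and Tmed7. In the COPI and Golgi list, 5 of 37 genes had one (13.5%, 4.54 to 28.8): Arf4 (1371 bp), Cope (1309 bp), Cog3 (1284 bp), Arcn1 (1148 bp) and Arf1 (1132 bp).

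Sensors and factors of the unfolded protein response had very wide peaks at 6 of 16 genes (37.5%, 15.2 to 64.6). Creb3l2, an ER-bound factor that is released by proteolysis, had 2414 bp and Xbp1 itself 2296 bp (chromosome 11, 5519907 to 5522202, exon 1 of 6). Next came Atf4, the effector of the PERK branch (1733 bp), the sensor Atf6 (1469 bp), Eif2ak3, which encodes PERK (1430 bp), and Nfe2l1 (1037 bp). Of 29 downstream genes of ATF4 and CHOP and of amino acid supply, none had a very wide peak (0 of 29, which allows a share of up to 11.9%), and 10 had a narrower one. The 1.26% of all protein-coding genes lies within that limit.

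Outside the secretory pathway, very wide peaks were found in the lists of splicing factors (11 of 50, 22%, 11.5 to 36.0) and translation factors (9 of 50, 18%, 8.58 to 31.4). The widest were at the RNA-binding protein gene Pcbp1 (2104 bp), Hnrnpf (1912 bp), Rbm39 (1763 bp), Ddx17 (1527 bp), Srsf2 (1490 bp) and Ptbp1 (1333 bp) among the former. Among the latter they were at the initiation factors Eif2a (2751 bp), Eif1a (2430 bp) and Eif3a (1823 bp), the elongation factor Eef1a1 (1536 bp), Eif4g2 (1441 bp) and the release factor Etf1 (1310 bp). All 11 splicing factor peaks were annotated to promoters. Transfer RNA synthetases had 3 of 23, Vars (1066 bp), Eprs and Mars (1033 bp each). Cytosolic ribosomal protein genes had 4 of 78 (5.13%, 1.41 to 12.6), with 1995 bp at Rpl10, 1177 bp at Rpl37 and 1009 bp at Rpl4, while 40 had a narrower peak. Mitochondrial ribosomal and oxidative phosphorylation genes had none of their own (0 of 149, up to 2.45%, which takes in the 1.26% of all protein-coding genes), and 44 had a narrower peak. Mrps18b, of the mitochondrial ribosome, starts inside the 3413 bp peak of Ppp1r10.

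In other housekeeping lists the shares were 2.17% to 5.88%, with intervals that all take in the 1.26% of all protein-coding genes. The proteasome had Psmb8 (1415 bp) and Psmb10 (1049 bp), both inducible catalytic subunits of the immunoproteasome, of 42 genes. The list of ubiquitin genes included the polyubiquitin gene Ubb (1679 bp). RAB GTPases had Rab2a (1253 bp) and Rab1a (1217 bp) of 41, and sterol and lipid synthesis Insig1 (1112 bp), an ER regulator of sterol synthesis, of 46. Of 40 cytosolic and mitochondrial chaperones, Hspe1 (1286 bp) had one. A further 4 start inside very wide peaks: Hspd1, the partner of Hspe1, in the same interval, Dnajb4 in that of Fubp1 (1616 bp), and the chaperonin genes Cct7 in that of Pradc1 (1569 bp) and Cct3 in that of Tsacc (1413 bp).

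For genes that define NK cells or the response to IL-15, the count was 1 of 115 (0.870%, 0.0220 to 4.75), near the 1.26% of all protein-coding genes. It was the lymphoid factor Ikzf1 (1040 bp), while 22 had a narrower peak. The adaptor gene Shc1 starts inside the 1691 bp peak of Cks1b. None of 30 effector genes was included (up to 11.6%, which takes in the share of all genes). Of 50 immediate early and feedback genes, Fosl2 (1193 bp) had one (2%, 0.0506 to 10.6). Of 38 PIM kinase and apoptosis genes, Birc2, an inhibitor of apoptosis (1563 bp), and Pim3 (1082 bp) each had one (5.26%, 0.644 to 17.7). Both intervals take in the 1.26% of all protein-coding genes. The peak of Pim2 was 231 bp wide. None of 100 genes marking B, T and myeloid cells, liver and neurons had one (up to 3.62%), a count that the 1.26% of all protein-coding genes also allows.

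The remaining 169 very wide peaks were at genes of none of the lists. They were sorted by known role after their names had been seen, and narrower peaks were not sorted, so these counts describe the set and make no comparison. Regulators of transcription and chromatin made up 32, among them Ppp1r10, a targeting subunit of a protein phosphatase with the widest peak of all (3413 bp; chromosome 17, 35915749 to 35919161), the bromodomain gene Brd2 (2245 bp), Sp1 (1840 bp), Crem (1438 bp) and Ctcf (1041 bp). A further 21 belonged to the secretory pathway or its membranes though on no list, including Vps37c (2293 bp), the Golgi N-glycan enzyme Mgat2 (2286 bp), the ER acetyl-CoA transporter gene Slc33a1 (2184 bp) and clathrin heavy chain, Cltc (1402 bp). RNA processing accounted for 19, with Pan2 (2203 bp) and Snd1 (2049 bp) the widest. By the authors' gene type, 16 very wide peaks (5.46%, 3.15 to 8.72) were at noncoding genes, against 3.77% (3.15 to 4.47) of narrower ones. The 5 widest were Gt(ROSA)26Sor (2174 bp), 0610009E02Rik and 4930526I15Rik (2156 bp each), Lockd (2050 bp) and Morrbid (1516 bp), a long noncoding RNA known for controlling the survival of myeloid cells.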

How the data were processed

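The 4 libraries were 100-bp paired-end ChIP-seq from cells fixed in 1% formaldehyde for 10 min, with 2% of the chromatin kept as input, per the labels' protocols. Precipitations with antibodies to T-bet or with IgG, also named there, were not analysed here. The submitters' processing notes list HOMER (4.11 and 4.11.1), the peak caller MACS2 2.2.7.1, the aligner Bowtie2 2.4.5 and, for read quality, FastQC 0.11.9 and Trim Galore 0.6.7. Per the file headers, the list is HOMER's annotation of 1 set of intervals called common on mm10. How peaks were called and combined, and so whether widths are those of entire peaks or of overlaps between calls, was not given in the sources used here. A score that the authors deposited is 0 for every peak, so width (end minus start plus 1) is the only size per peak, and it is not a measure of signal. Distances, genes and annotation classes are the authors'.

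Motifs were searched on both strands of RefSeq promoters (GRCm38.p6); code was tested on simulated data. Sequence beyond these promoters was not searched. Shares carry exact Clopper-Pearson 95% intervals, and intervals of medians come from binomial ranks. The members and the 31 gene lists (1208 entries, all matched, 13 through an older symbol) were chosen with earlier results of these data known. The text names the 20 widest peaks, those nearest both thresholds and farthest from the TSS, the 6 widest of each list, genes with 2 such peaks, Xbp1, Pim2 and the 5 widest noncoding genes. Some genes that these rules take in are not reported here. Other genes of complexes and roles, covered neighbours and genes with an element were chosen after their values were seen. Printed promoters were picked from the widest list members with an ERSE or UPRE core, Xbp1, and Creb3l2. After Eif2a (2751 bp), which is not printed, Creb3l2 (2414 bp) had the widest placed peak without related letters. Alternatives varied both thresholds, the promoter window and the gene assignment. The software was SciPy 1.17.1 and NumPy 2.4.6 with pandas 2.3.3 under Python 3.11.15, and matplotlib 3.10.9 for plots.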

Additional observations from a re-analysis of the deposited data

How the results depend on the processing

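Of 99 values recomputed under alternatives, 82 stayed within their interval or, for counts, within 1.5 times, and 17 moved. All are values of the very wide peaks alone; contrasts with narrower peaks were not recomputed. The number of very wide peaks was 499 with a minimum of 800 bp, 172 with 1200 bp and 78 with 1500 bp. With 1500 bp, 100% covered the TSS. All centred within 500 bp of it did so as well, which a width of at least 1000 bp fixes in advance. The 1500 bp minimum also gave 26.9% in introns and 33.3% at ER and secretory genes (19.8% with 800 bp). With it, 7.81% of promoters held an ERSE, and 20.5% of genes had a further peak. Counting only further peaks within 1000 bp of the TSS gave 3.75%. Shorter windows hold fewer letters: with bases before the start only, ACGTGG was in 21.8% and CCACG in 58.4% of promoters, and with 150 bases before it ACGTGG was in 18.5%, CCACG in 45.7%, the E-box in 9.05% and the NF-Y box in 40.7%. Counting covered starts for genes and motifs was chosen after the data were seen. No paired analysis was possible because no value belongs to a single library, and leaving out each replicate could not be run for the same reason. The number of promoters with each element sets the precision of its share.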
